A study of Homo sapiens with 9 samples.

Results

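The genes described here are 10 widely used readouts of the actin cytoskeleton in transcription, found by symbol among the 36385 genes of the expression table. The 5 targets of the coactivator YAP were CCN1, CCN2, ANKRD1, AMOTL2 and LATS2. The 5 contractile targets of serum response factor (SRF) were ACTA2, TAGLN, CNN1, MYL9 and TPM1. All 10 symbols had a row of their own. They were measured by RNA-seq in MG-63 cells, an established human osteosarcoma line used as an osteoblast model, grown on 3 titanium surfaces.

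The HA coating group was boronized Ti6Al4V carrying HA, the TiB2 group was Ti6Al4V with TiB2, and the bare alloy group was uncoated Ti6Al4V, a titanium alloy of implants. All 3 groups received the same osteogenic induction, which was 7 days with dexamethasone at 100 nM, ascorbic acid at 50 µg/mL and beta-glycerophosphate at 10 mM, so no library shows the cells without it. Each surface had 3 libraries, all given 1 batch by the labels, and the labels mark the TiB2 libraries as not part of the submitters' final analysis. The cells are 1 tumour-derived line, and the labels do not say whether libraries of a group came from separate cultures, so a p-value here covers library-to-library spread only, which may be technical.

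Cells on a stiff or adhesive surface assemble actin fibres, and a pair of transcriptional programmes read that state. Filamentous actin restrains the Hippo kinases LATS1 and LATS2, which lets YAP and its relative TAZ (WWTR1) enter the nucleus and bind TEAD factors at the motif GGAATG. Polymerisation also uses up the monomeric actin that holds MRTF coactivators in the cytoplasm, and freed MRTF joins SRF on CArG boxes of contractile and cytoskeletal genes. The programmes share genes and inputs.

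The motif sites of these genes are shown because the members were listed by the factor assigned to them. RefSeq promoter windows of GRCh38.p14, which run from 250 bases before to 50 bases after a transcript start, were present for 7 of the 10 genes and not for CCN1, TAGLN and MYL9. Searched on both strands as GGAATG or CATTCC, the TEAD motif was found in the windows of 4 of 4 YAP targets (CCN2, ANKRD1, AMOTL2 and LATS2) and of 1 of 3 SRF targets (ACTA2), against 16.7% of the 27305 genes with a window. It was also in 14 of 27 other SRF cytoskeletal targets (51.9%) and in 5 of 12 other YAP targets (41.7%), so the letters did not separate the lists. In the stretches below the motif is in capitals, 5′ to 3′ on the strand of the gene, which is the minus strand for all 4. CCN2 carried it at 3 places 169, 104 and 95 bases before its start, ANKRD1 at 2 places 220 and 128 bases before, AMOTL2 at 69 bases before in 1 of its 2 windows, and ACTA2 at 183 bases before in 1 of its 2 windows. LATS2 carried it 9 bases after its start. A short stretch just after that start was not found in an annotated transcript of the gene, unlike in the other windows, so the transcript read from it was not matched. The start itself lies at the outer end of the gene in the deposited coordinates, 21061586.
CCN2, chr6:131951450-131951553: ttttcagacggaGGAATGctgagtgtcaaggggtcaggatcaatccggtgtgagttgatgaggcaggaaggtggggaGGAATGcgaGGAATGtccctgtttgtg
ANKRD1, chr10:90921198-90921319: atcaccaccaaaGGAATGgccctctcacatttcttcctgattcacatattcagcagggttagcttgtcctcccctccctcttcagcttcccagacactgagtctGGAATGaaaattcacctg
AMOTL2, chr3:134374499-134374528: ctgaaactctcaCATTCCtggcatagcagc
ACTA2, chr10:88952939-88952968: gagcagaccagtGGAATGcagtggaagaga

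The CArG box was searched only as the exact 10 letters CCWWWWWWGG, where W is A or T. Boxes that differ from it by a letter were not counted. This exact form was in none of the windows of the 3 SRF targets or of the 4 YAP targets. That says only that a perfect match is absent from those 300 bases, not that the promoters lack a CArG box. The exact form is meant by the box below. The box was in 14 of the 27 other SRF cytoskeletal targets with a window, against 1.6% of all genes. Examples from that list, with the box in capitals, are shown because these genes appear in the results. MYLK (minus strand) encodes the myosin light chain kinase, CNN2 (plus) a calponin, SMTN (plus) smoothelin and LPP (plus) an adhesion-plaque protein. Their boxes lay 94, 89, 44 and 183 bases before a RefSeq transcript start of the gene. Which product begins at that start was not checked, so the MYLK box may not belong to the full-length kinase.
MYLK, chr3:123620623-123620652: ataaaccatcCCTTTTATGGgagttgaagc
CNN2, chr19:1026509-1026538: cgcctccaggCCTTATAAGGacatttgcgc
SMTN, chr22:31084942-31084971: cggggccgggCCATATAAGGaaaagctagg
LPP, chr3:188212519-188212548: gcctgcttctCCATATTTGGaaatgtttac

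Libraries held 60528871 to 72542556 counts on the HA coating, 62951461 to 63413815 on TiB2 and 58464306 to 63122541 on bare alloy. Levels below are CPM, counts scaled to a common library size with TMM factors over the 9 libraries, and FPKM, which also divides by gene length, is used between genes. The libraries also fell into sets that cross the groups. The 3 HA coating libraries and bare alloy replicate 1 stood against the 3 TiB2 libraries and bare alloy replicates 2 and 3, with 22 genes at 20 or more counts in every library of one set and 3 or fewer in every library of the other. CD3E, a T cell receptor subunit, had 0 counts in the set of 4 and 1.5 to 2.47 CPM in the set of 5, and 828 of 21213 genes (3.9%) divided without overlap by set. The HA coating and TiB2 groups lie wholly in different sets, so surface and set cannot be told apart between them. Genes that divide by set are given with and without bare alloy replicate 1. Ribosomal DNA rows took 6.46% of counts in bare alloy replicate 1 and 0.0831% to 1.07% in the other libraries. Osteoblast markers were detected 6 of 6 in every library, at a sum of 5330 to 9040 CPM on the HA coating, 8290 to 8700 CPM on TiB2 and 16100 to 17800 CPM on bare alloy. The muscle list of 8 genes summed to 2.43 to 4.46 CPM over all libraries, with 1 to 4 of its genes at 0 in each. The osteoblast sum followed the collagens, SPARC and VIM. ALPL, alkaline phosphatase, went the other way, at means of 11.02 CPM on the HA coating, 12.9 CPM on TiB2 and 1.72 CPM on bare alloy. RUNX2 averaged 3.18, 3.65 and 2.30 CPM in that order. The labels call the line epithelial-like, and of 6 epithelial markers EPCAM and CDH1 were at or under 1.15 and 0.548 CPM and KRT5 and KRT14 at or near 0, while KRT8 averaged 80.6, 115 and 92.3 CPM and KRT18 79.4, 79.6 and 58.5 CPM, both higher on TiB2 than on bare alloy (adjusted p = 0.0299 and 0.0288, edgeR). The part of these differences in the results was not tested.

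The 10 genes spanned a wide range of levels. On bare alloy, mean FPKM was 627 for CCN2, 38.9 for TPM1, 36.9 for CCN1, 32.96 for AMOTL2, 6.93 for LATS2, 5.11 for ACTA2, 1.70 for MYL9, 0.724 for TAGLN, 0.274 for ANKRD1 and 0.0501 for CNN1. Neighbours such as TPM1, CCN1 and AMOTL2 lay close together, while CCN2 alone took 0.134% to 0.297% of all counts in a library. The smooth muscle genes TAGLN and CNN1 and the muscle-enriched ANKRD1 were thus near the bottom in these bone tumour cells.

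**Figure D1:**
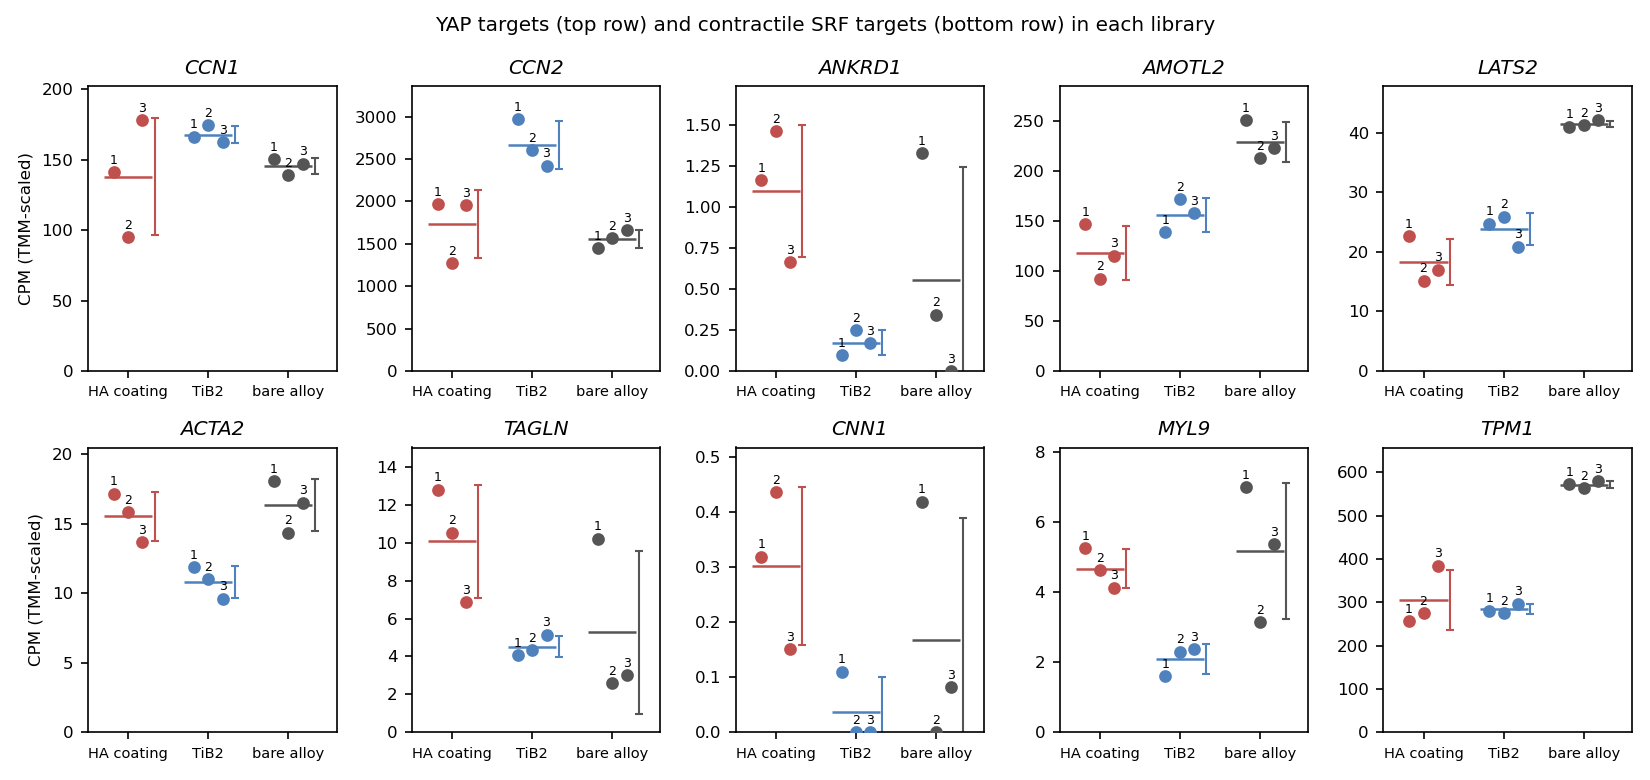
Level of each gene (CPM after TMM scaling, linear axes from 0) in each of the 9 libraries, with HA coating left, TiB2 in the middle and bare alloy right; points carry the replicate number, horizontal bars are group means and vertical bars ± SD (n = 3). LATS2, AMOTL2 and TPM1 lie lower on both coatings than in every bare alloy library, and TAGLN, ANKRD1 and CNN1 are high in bare alloy replicate 1 but not in replicates 2 and 3.

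Between HA coating and bare alloy, 3 of the 10 genes fell (AMOTL2, LATS2 and TPM1), none rose and 7 did not pass edgeR's quasi-likelihood test at an adjusted p of 0.05. Over all 20117 genes tested, 4.88% fell and 5.02% rose. Between TiB2 and bare alloy, CCN1 and CCN2 rose, AMOTL2, LATS2, ACTA2, MYL9 and TPM1 fell, and ANKRD1 and TAGLN did not pass, so 7 of the 9 tested genes changed. Over the 20152 genes tested there, 12.9% rose and 12.2% fell. CNN1 was too low to be tested there. The 10 genes were chosen with earlier results of these data known, so their shares are descriptions and not tests. The counts of these comparisons do not measure which surface moved more of the genes. Of simulated 2-fold changes, 46% were called for HA coating against bare alloy and 99% for TiB2 against bare alloy. The HA coating libraries were less alike. Between libraries of a group, the median squared difference was 29.7 to 46.1 times that of binomial counting on the HA coating. On TiB2 it was 10.8 to 12.4 times and on bare alloy 10.1 to 13.8 times. Both comparisons share the bare alloy libraries, so they are given side by side and not as independent results. Since the RNA came from whole cultures, fewer expressing cells and less RNA per cell cannot be told apart.

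The secreted matricellular proteins came first among the YAP targets. CCN1 (CYR61; ENSG00000142871, chromosome 1, 85580761 to 85583950) binds integrins and is the usual early readout of YAP. It stood at 141, 94.96 and 178 CPM on the HA coating, at 167, 175 and 162 CPM on TiB2, and at 150, 139 and 147 CPM on bare alloy. The HA coating libraries spread on both sides of the bare alloy ones, while the 3 TiB2 libraries lay just above them. For HA coating against bare alloy the log2 fold change was −0.09 ± 0.22 (SE; adjusted p = 0.840, edgeR), with a 95% interval of −0.59 to 0.41. For TiB2 against bare alloy it was 0.21 ± 0.07 (adjusted p = 0.0494), and leaving out any 1 of the 6 libraries ended that call, at adjusted p-values of 0.0724 to 0.161. The table's CCN1 row carried 3 Entrez identifiers, 1 of them for CCN1 itself.

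CCN2 (CTGF; ENSG00000118523, chromosome 6, 131948176 to 131951372), a matricellular factor that supports matrix production in bone, was the most abundant of the 10 genes and rose on TiB2. It reached 2971, 2601 and 2421 CPM on TiB2, against 1450, 1570 and 1658 CPM on bare alloy, and every TiB2 library was above every bare alloy library. The rise was 0.77 ± 0.10 on the log2 scale, or 1.71-fold (adjusted p = 0.00074, edgeR), and kept its call without any 1 library and under every other setting. On the HA coating it stood at 1966, 1268 and 1954 CPM, with replicate 2 below the bare alloy libraries and the other two above them. That comparison gave 0.14 ± 0.22 (adjusted p = 0.720; 95% interval −0.35 to 0.63). An annotated antisense transcript covers 8.34% of the CCN2 exon bases, at a mean of 0.505 CPM on the HA coating and 0.588 CPM on bare alloy.

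ANKRD1 (ENSG00000148677, chromosome 10, 90912096 to 90921087), a nuclear ankyrin-repeat protein of stretched muscle, was near the detection limit. It had 73, 94 and 44 counts on the HA coating (1.16, 1.46 and 0.666 CPM), 6, 16 and 11 counts on TiB2 (0.0947, 0.247 and 0.171 CPM), and 73, 22 and 0 counts on bare alloy (1.33, 0.344 and 0 CPM). The bare alloy libraries overlapped both coatings, with replicate 1 at the level of the HA coating libraries and replicate 3 below all TiB2 libraries, and the count of 0 allows up to 0.0494 CPM, for counting error only. The log2 fold change was 0.98 ± 1.04 for HA coating against bare alloy (adjusted p = 0.586, edgeR) and −1.69 ± 1.16 for TiB2 against bare alloy (adjusted p = 0.336). Without bare alloy replicate 1 these values were 2.64 (adjusted p = 0.212) and −0.016 (0.996). Set against that replicate alone, the library of its own set, the HA coating value was −0.25.

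The remaining YAP targets are negative-feedback genes. AMOTL2 (ENSG00000114019, chromosome 3, 134355347 to 134374560), a motin that binds YAP and holds it at junctions and actin, stood at 146, 92.2 and 115 CPM on the HA coating, 138, 171 and 157 CPM on TiB2 and 251, 213 and 222 CPM on bare alloy. Every library of either coating was below every bare alloy library. It fell by 0.96 ± 0.20 on the log2 scale on the HA coating (1.95-fold, adjusted p = 0.0200, edgeR) and by 0.55 ± 0.10 on TiB2 (1.47-fold, adjusted p = 0.00293). The HA coating call ended in 4 of the 6 fits that left out a library, those without HA coating replicate 2 or any 1 of the bare alloy replicates (adjusted p = 0.0556 to 0.0897), with log2 fold changes of −1.14 to −0.81 over all 6. A pseudogene on the same strand covers 3.12% of the AMOTL2 exon bases.

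LATS2 (ENSG00000150457, chromosome 13, 20973036 to 21061586), the Hippo kinase that phosphorylates YAP and is itself induced by it, fell on both coatings. It stood at 22.7, 15.2 and 17.0 CPM on the HA coating, 24.7, 25.9 and 20.8 CPM on TiB2 and 41.0, 41.2 and 42.1 CPM on bare alloy. The bare alloy libraries had a coefficient of variation of 1.38%, and the highest coated library was at 25.9 CPM. LATS2 fell by 1.19 ± 0.19 on the HA coating (2.28-fold, adjusted p = 0.00662, edgeR) and by 0.80 ± 0.10 on TiB2 (1.74-fold, adjusted p = 0.000411). Both calls were kept without any 1 library. Against bare alloy replicate 1 alone the HA coating value was −1.15, nearly the same size, at an adjusted p of 0.247 with that single library as the comparison group.

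**Figure D2:**
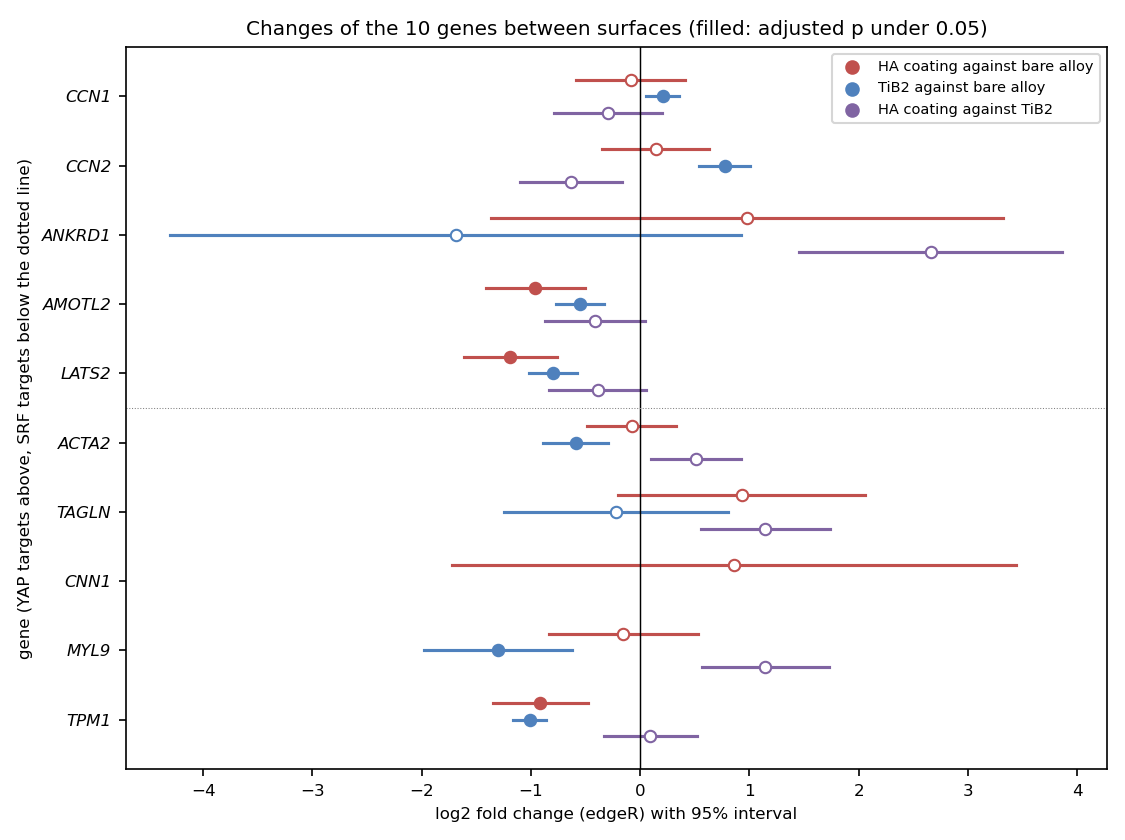
Log2 fold change of each gene (horizontal axis, edgeR, with 95% interval) in HA coating against bare alloy, TiB2 against bare alloy and HA coating against TiB2; filled points are past an adjusted p of 0.05. AMOTL2, LATS2 and TPM1 are filled below 0 for both coatings, CCN2 is filled above 0 at 0.77 for TiB2, and no point is filled for HA coating against TiB2.

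Among the contractile SRF targets, TPM1 (ENSG00000140416, chromosome 15, 63042632 to 63071915), a tropomyosin that coats and stabilises actin filaments, fell on both coatings. It stood at 257, 276 and 384 CPM on the HA coating, 281, 275 and 297 CPM on TiB2 and 573, 563 and 580 CPM on bare alloy. All 6 coated libraries were far below the 3 bare alloy ones, of which the lowest was 563 CPM. TPM1 fell by 0.91 ± 0.19 on the HA coating (1.89-fold, adjusted p = 0.0201, edgeR) and by 1.01 ± 0.07 on TiB2 (2.01-fold, adjusted p = 1.275e-05). The TiB2 call was kept without any 1 library. The HA coating call ended in the 4 fits without HA coating replicate 2 or any 1 of the bare alloy replicates (adjusted p = 0.0658 to 0.104) and without the filter on low counts (0.0521). TPM1-AS covers 16.1% of the TPM1 exon bases on the other strand, at a mean of 0.362 CPM on the HA coating and 4.14 CPM on bare alloy. Reads shared with the other tropomyosins, or taken from the antisense gene, make the TPM1 count uncertain to that extent.

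ACTA2 (ENSG00000107796, chromosome 10, 88935074 to 88991339), the smooth muscle α-actin of myofibroblast stress fibres, stood at 17.2, 15.8 and 13.7 CPM on the HA coating, 11.9, 11.02 and 9.62 CPM on TiB2 and 18.1, 14.4 and 16.5 CPM on bare alloy. HA coating and bare alloy overlapped, and all TiB2 libraries were below both. It fell on TiB2 by 0.59 ± 0.13 (1.51-fold, adjusted p = 0.0105, edgeR), kept without any 1 library. On the HA coating the log2 fold change was −0.08 ± 0.18 (adjusted p = 0.824; 95% interval −0.48 to 0.33). ACTA2 exons overlap those of FAS on the other strand over 12.8% of their bases, and FAS averaged 87.2 CPM on the HA coating and 43.9 CPM on bare alloy. ACTA2-AS1 covers 17.3% of them at under 1 CPM on those surfaces. The levels of both on TiB2, where ACTA2 fell, were not taken, so the overlap was not weighed there. Reads of the near-identical actins could also be shared.

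MYL9 (ENSG00000101335, chromosome 20, 36541497 to 36551447), the regulatory light chain of smooth muscle and non-muscle myosin, also fell on TiB2. It stood at 5.26, 4.64 and 4.13 CPM on the HA coating, 1.61, 2.30 and 2.38 CPM on TiB2 and 7.01, 3.15 and 5.38 CPM on bare alloy. The TiB2 libraries were below all others, and the bare alloy libraries enclosed those of the HA coating. The gene fell by 1.30 ± 0.30 on TiB2 (2.47-fold, adjusted p = 0.0119, edgeR), kept without any 1 library. On the HA coating the value was −0.15 ± 0.30 (adjusted p = 0.785; 95% interval −0.83 to 0.53), and it was 0.13 without bare alloy replicate 1. Its sequence is close to MYL12A and MYL12B, so its count is uncertain where reads were shared.

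TAGLN (SM22; ENSG00000149591, chromosome 11, 117199370 to 117207464), an actin-bundling protein and a classic CArG-driven gene, divided by library set. It stood at 12.8, 10.5 and 6.87 CPM on the HA coating, 4.07, 4.34 and 5.15 CPM on TiB2 and 10.2, 2.597 and 3.01 CPM on bare alloy. Bare alloy replicate 1 lay among the HA coating libraries, at 3.64 times the mean of replicates 2 and 3, and those lay below TiB2. The log2 fold change for HA coating against bare alloy was 0.93 ± 0.50 (adjusted p = 0.268, edgeR). It was 1.84 without bare alloy replicate 1 (adjusted p = 0.0226), and 0.0016 against that replicate alone. For TiB2 against bare alloy it was −0.22 ± 0.46 (adjusted p = 0.779), and 0.68 without bare alloy replicate 1 (adjusted p = 0.0516). PCSK7 overlaps 11.4% of the TAGLN exon bases on the other strand, at 27.2 CPM on the HA coating and 24.7 CPM on bare alloy.

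CNN1 (calponin; ENSG00000130176, chromosome 19, 11538767 to 11550322), an inhibitor of actomyosin in differentiated smooth muscle, was barely detected, and passed the filter on low counts only in HA coating against bare alloy. It had 20, 28 and 10 counts on the HA coating, 7, 0 and 0 counts on TiB2 and 23, 0 and 5 counts on bare alloy. A count of 0 allows up to 0.0463 and 0.0467 CPM in the TiB2 libraries and 0.0469 CPM in the bare alloy library. The log2 fold change for HA coating against bare alloy was 0.86 ± 1.14 (adjusted p = 0.670, edgeR). It was 2.83 without bare alloy replicate 1 (adjusted p = 0.278) and −0.44 against that replicate alone. Bare alloy replicate 1 again held most of the group's counts.

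TAGLN and ANKRD1 were higher in all 4 libraries of the HA coating set, bare alloy replicate 1 included, than in all 5 others. Of all 21213 genes, 299 (1.41%) were higher in that way. CNN1 divided likewise, but by only 10 counts in HA coating replicate 3 against 7 in TiB2 replicate 1. It had more than 7 counts only in libraries of the HA coating set, so it is not weighed against that share. Bare alloy replicate 1 exceeded the mean of replicates 2 and 3 by 7.73 times for ANKRD1, 10.2 times for CNN1 and 3.64 times for TAGLN. For LATS2, TPM1, CCN1 and CCN2 the same ratio was 0.985, 1.00, 1.05 and 0.898, and for AMOTL2 and ACTA2 it was 1.15 and 1.17, with 1.64 for MYL9. These ratios carry no further result, because a call against bare alloy favours genes even in its 3 libraries, and the divided genes were picked by replicate 1. Even levels were also not particular to the genes that fell on both coatings. The bare alloy coefficient of variation was 4% for CCN1 and 6.7% for CCN2, which did not fall, and 8.65% for AMOTL2, which did.

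**Figure D3:**
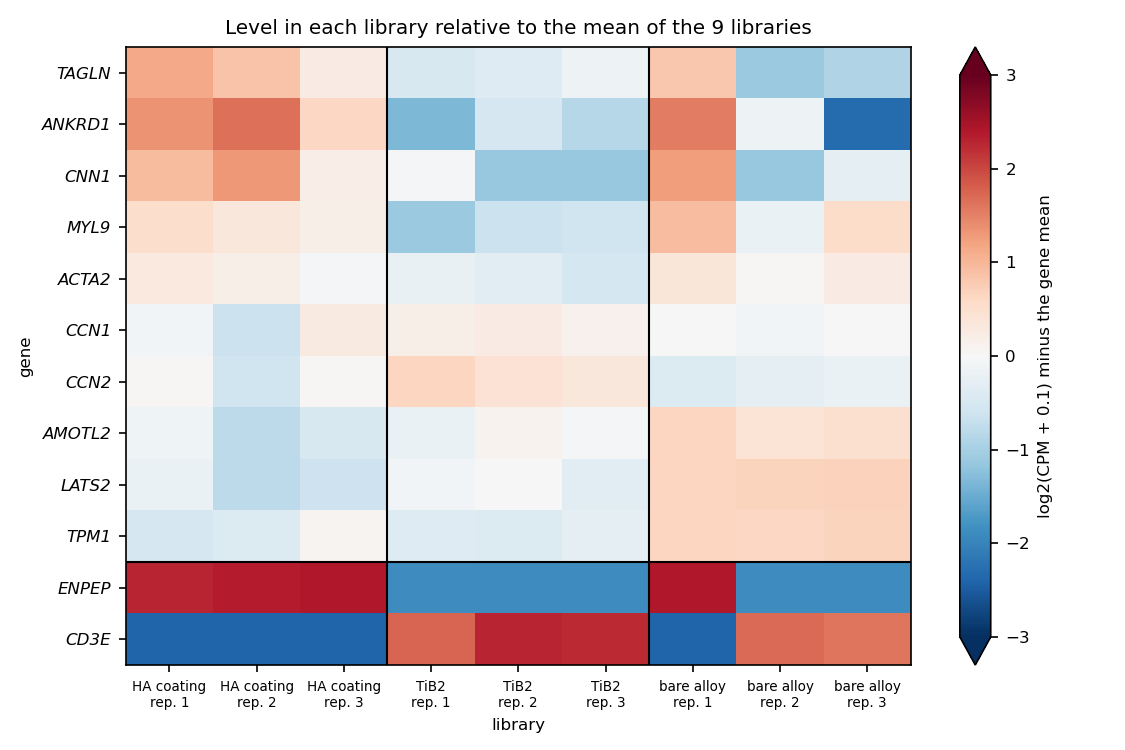
Level of each gene in each library on the log2(CPM + 0.1) scale, minus that gene's mean over the 9 libraries; red is higher and blue lower, and the bottom rows are ENPEP and CD3E, a gene from each side of the library sets. Bare alloy replicate 1 is red with the HA coating libraries for TAGLN, ANKRD1 and CNN1 (and ENPEP), and red with the other bare alloy libraries for AMOTL2, LATS2 and TPM1.

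Between HA coating and TiB2, none of the 9 genes tested passed edgeR's adjusted p of 0.05, where 0.179% of 20086 genes were called higher and 0.453% lower. At an unadjusted p under 0.05 there were 5, against 12% of all genes. DESeq2 called 3 (ANKRD1, TAGLN and MYL9), against 2.5% of 20076 genes. The libraries of the 2 coatings did not overlap for 5 of the 9, against 18.1% of all genes. ANKRD1 differed by 2.66 ± 0.54 on the log2 scale (adjusted p = 0.0710, edgeR; 95% interval 1.46 to 3.86), TAGLN by 1.15 ± 0.26 (0.109) and MYL9 by 1.15 ± 0.26 (0.106), all higher on the HA coating in 3 of 3 libraries. The ANKRD1 adjusted p was 0.0493 without HA coating replicate 1, and that of TAGLN was 0.0354 without HA coating replicate 3. ACTA2 was 0.51 ± 0.18 (adjusted p = 0.353) and CCN2 was −0.63 ± 0.21 (adjusted p = 0.314). The genes low on both coatings had intervals that reached 0, which were −0.87 to 0.04 for AMOTL2, −0.84 to 0.06 for LATS2 and −0.33 to 0.52 for TPM1. All of these values also compare the library sets.

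Of 17 other YAP target genes, 1 rose and 5 fell on the HA coating (5.88% and 29.4%, against 5.02% and 4.88% of all genes), with a median log2 fold change of −0.54, against 0.0152 over all genes. On TiB2, 2 rose and 6 fell (11.8% and 35.3%, against 12.9% and 12.2% of all genes), with a median of −0.157 against 0.00178 over all genes. The lists here and below were chosen with earlier results of these data known, so their shares are descriptions and not tests. CCDC80, a secreted matrix protein, fell on both, to 162 CPM on the HA coating and 245 CPM on TiB2, against 350 CPM on bare alloy (log2 fold changes −1.12 and −0.51, adjusted p = 0.00439 and 0.000848, edgeR). NT5E, the ectonucleotidase CD73, averaged 287 CPM on the HA coating, 156 CPM on TiB2 and 446 CPM on bare alloy (−0.64 and −1.52, adjusted p = 0.0349 and 5.544e-06). PTPN14, a phosphatase that binds YAP, averaged 64.4, 73.9 and 127 CPM in the same order (−0.99 and −0.78, adjusted p = 0.0434 and 0.000248). F3, tissue factor, rose on both, to 3.91 CPM on the HA coating and 2.28 CPM on TiB2, against 1.21 CPM on bare alloy (1.68 and 0.91, adjusted p = 0.00945 and 0.0255). The HA coating falls of PTPN14, MYOF and TGFB2 (adjusted p = 0.0434, 0.0413 and 0.0475) ended without HA coating replicate 2 or 3 or any 1 bare alloy replicate, that of TGFB2 also without HA coating replicate 1. All 3 also ended with no filter on low counts and in both limma fits on FPKM, and those of MYOF and TGFB2 with the replicate block. The HA coating fall of NT5E was not followed through the other settings. The rise of F3 on the HA coating ended without bare alloy replicate 2, and its rise on TiB2 without TiB2 replicate 2 or 3 or bare alloy replicate 2 or 3. The TiB2 rise of F3 also ended in the fit over all 9 libraries and with the replicate block (adjusted p = 0.0591 and 0.058, edgeR). On TiB2, CRIM1, a transmembrane regulator of growth factors, also rose (0.35, adjusted p = 0.0116), a call that ended in the fit over all 9 libraries (0.339) and with the replicate block (0.0524). The RNA-binding protein gene RBMS3 fell on TiB2 (−0.56, adjusted p = 0.0321), a call that ended without TiB2 replicate 1 or 2 or bare alloy replicate 1 or 2. The RBMS3 call also ended with no filter on low counts, in both limma fits on FPKM, in the fit over all 9 libraries and with the replicate block.

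Of 20 upstream Hippo pathway genes, 1 rose and 1 fell on the HA coating (5% each, near the 5.02% and 4.88% of all genes), and 1 rose and 3 fell on TiB2 (5% and 15%, against 12.9% and 12.2%). TEAD4, a DNA-binding partner of YAP, rose and VGLL3, a TEAD cofactor, fell on the HA coating. On TiB2, TEAD4 rose and AMOT, VGLL4 and STK4 fell. TEAD4 averaged 20.9 CPM on the HA coating and 18.4 CPM on TiB2, against 10.4 CPM on bare alloy (log2 fold changes 1.00 and 0.82, adjusted p = 0.0150 and 0.00252, edgeR). Its HA coating call ended without bare alloy replicate 1 or 2, and that of VGLL3 (−0.88, adjusted p = 0.0108) without any 1 of the bare alloy replicates. The fall of AMOT, a motin like AMOTL2, on TiB2 (−1.25, adjusted p = 0.0368) ended without TiB2 replicate 1 or 2 or bare alloy replicate 1 or 3. It also ended with no filter on low counts, in both limma fits on FPKM, in the fit over all 9 libraries and with the replicate block. VGLL4 (−0.41, 0.00572) and STK4 (−0.38, 0.00958), which restrain YAP, kept their TiB2 calls without any 1 library. In the fit over all 9 libraries VGLL4 and STK4 did not pass (0.079 and 0.164), nor did STK4 in the limma fits on FPKM (0.0872 and 0.0817). YAP1 averaged 132 CPM on the HA coating, 145 CPM on TiB2 and 163 CPM on bare alloy, and passed in neither comparison (−0.31 and −0.17, adjusted p = 0.212 and 0.0919). WWTR1, which encodes TAZ, did not pass either (−0.20 and 0.04, adjusted p = 0.445 and 0.760).

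Of 30 other SRF cytoskeletal targets, 27 were tested. On the HA coating 1 fell (3.7%, against 4.88% of all genes) and none rose, with a median of −0.0159. On TiB2 3 rose and 4 fell (11.1% and 14.8%, against 12.9% and 12.2% of all genes), with a median of −0.145. These shares were near those of all genes. The one that fell on both was MYLK, which phosphorylates myosin light chains such as MYL9. MYLK stood at 64.7, 46.7 and 29.5 CPM on the HA coating, 51.4, 56.7 and 47.7 CPM on TiB2 and 181, 177 and 181 CPM on bare alloy. No coated library came near the bare alloy libraries. The fall was 3.85-fold on the HA coating (log2 fold change −1.94 ± 0.27, adjusted p = 0.00388, edgeR) and 3.47-fold on TiB2 (−1.79 ± 0.08, adjusted p = 1.253e-06). Against bare alloy replicate 1 alone the HA coating value was −1.93, where the comparison group is a single library assumed to vary like the HA coating ones. On TiB2 the actin-binding genes CNN2 (−0.60), CALD1 (−0.54) and VCL (−0.31) fell, at adjusted p-values of 0.00151, 0.00209 and 0.0181. SMTN (0.43), LPP (0.31) and TAGLN2 (0.25) rose on TiB2, at 0.00672, 0.0144 and 0.0299. MYLK, CNN2, SMTN and LPP carry the CArG boxes printed above, and were picked for display from the genes that passed. The counts are per gene and do not tell apart the transcripts read from those starts. Other tested genes of the list with an upstream box passed in neither comparison with bare alloy (ACTG1, TPM4, FLNA, ACTN1, TGFB1I1, FHL1 and FHL2). Their adjusted p-values on TiB2 were 0.0512 to 0.686 (edgeR). ACTG2, ACTC1 and ACTA1, which also carry a box, were not tested. The TiB2 call for VCL ended without TiB2 replicate 3 or bare alloy replicate 1 or 3, that for LPP without bare alloy replicate 1 or 3, and that for TAGLN2 without any 1 library but bare alloy replicate 1. VCL and LPP also lost theirs in both limma fits on FPKM, and VCL and TAGLN2 with the replicate block.

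Of SRF and its cofactors, MRTFA was lower on both coatings. MRTFA, the actin-sensing coactivator itself, stood at 33.2, 17.9 and 19.6 CPM on the HA coating, 27.0, 29.6 and 28.1 CPM on TiB2 and 62.1, 55.7 and 64.7 CPM on bare alloy. All coated libraries lay below all bare alloy libraries. It fell by 1.38 ± 0.25 on the HA coating (2.595-fold, adjusted p = 0.0105, edgeR; 0.0524 without bare alloy replicate 3) and by 1.11 ± 0.09 on TiB2 (2.16-fold, adjusted p = 2.982e-05). ELK3, an ETS partner of SRF, fell on TiB2 (−0.50, adjusted p = 0.000523). SRF averaged 26.2 CPM on the HA coating, 29.8 CPM on TiB2 and 29.5 CPM on bare alloy (−0.18 and 0.01, adjusted p = 0.605 and 0.954), and MRTFB did not pass either (−0.19 and 0.16, adjusted p = 0.670 and 0.156). In that list 1 of 6 tested genes fell on the HA coating (16.7%, against 4.88% of all genes) and 2 of 7 on TiB2 (28.6%, against 12.2%), with none rising. No gene of these 4 lists passed between HA coating and TiB2.

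**Figure D4:**
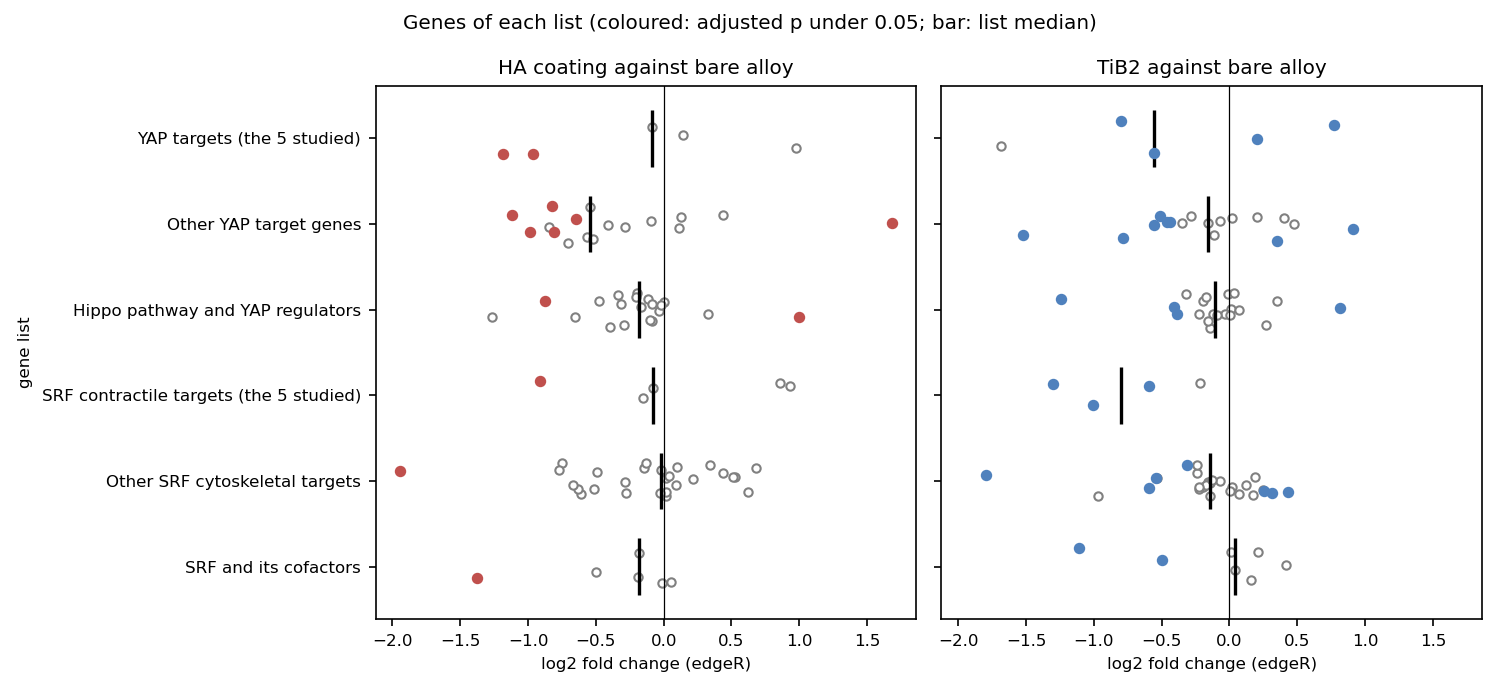
Log2 fold change (horizontal axis, edgeR) of every tested gene of each list in HA coating against bare alloy (left) and TiB2 against bare alloy (right); coloured points are past an adjusted p of 0.05 and the vertical bar is the list's median. Most points lie within 1 of 0, and MYLK at −1.94 and −1.79 is the lowest coloured point of each panel.

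The genes whose levels most resembled CCN1 and TAGLN over the 9 libraries were listed as a description, among 9621 and 9622 genes of at least 10 CPM. For CCN1 these were PTDSS2 (Pearson r = 0.982), PRPF6 (0.976) and DDOST (0.972). For TAGLN they were SPP1 (0.908), MFSD4B (0.902) and HSPA1B (0.882), the last uncertain because HSPA1A is nearly identical to it. SPP1, osteopontin, showed the same library sets, with 49.5, 45.9 and 46.7 CPM on the HA coating, 16, 14.5 and 16.4 CPM on TiB2 and 51.7, 15.7 and 15.3 CPM on bare alloy. The points share libraries, scaling and depth, so these values carry no test.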

How the data were processed

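The authors deposited 1 table of raw counts per gene and library, and the same table holds FPKM values the authors made from them. The submitters' processing notes name the GRCh38 build, featureCounts 2.0.1, HISAT2 2.2.1, cutadapt 2.10, limma and StringTie 2.1.4. Strand settings and multi-mapping rules were not given in any source used here, and antisense, overlapping and near-identical genes are therefore uncertain. Levels of overlapping genes were taken for HA coating and bare alloy only. RNA was extracted with TRIzol and libraries made with a NEBNext Ultra kit, per the labels' protocols.

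Counts were tested with edgeR 4.0.16 (R 4.3.3) on the 6 libraries of each comparison, with filterByExpr, TMM scaling, the two-sided quasi-likelihood test and Benjamini-Hochberg adjustment over all tested genes (threshold 0.05). Alternatives were no filter, DESeq2 size factors, DESeq2 1.42.0, limma 3.58.1 on log2(FPKM + 1) and log2(FPKM + 0.1), 1 fit over 9 libraries, a replicate block, each library left out, and bare alloy replicate 1 alone. A count of 0 allows up to 3 counts. On simulated data with 200 changed genes, edgeR called 46% of those changed 2-fold and 99% of those changed 4-fold among 19390 genes when HA coating was set against bare alloy. The same shares were 99% and 99% of 19504 genes in TiB2 against bare alloy, and 50% and 100% of 19370 genes in HA coating against TiB2.

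The members and lists were chosen with earlier results of these data known. Named genes were all 10 members, YAP1, WWTR1, SRF, MRTFA and MRTFB, and up to 4 called genes per list and direction at 1 CPM or more; CCN1 and TAGLN were the genes for likeness. Promoters are RefSeq windows, and coordinates of genes are those of the deposited table. One further gene list is not reported here.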

Additional observations from a re-analysis of the deposited data

How the results depend on the processing

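Between HA coating and bare alloy 1990 genes passed in edgeR, against 1093 with no filter on low counts, 3562 with DESeq2, 3518 in 1 fit over all 9 libraries and 286 against bare alloy replicate 1 alone, where the count of the 10 genes fell to 0 with that 1 library as the comparison group. Between TiB2 and bare alloy 5059 passed, and 2132 in 1 fit over all 9 libraries. Between HA coating and TiB2 127 passed, against 35 with no filter, 501 with DESeq2, 67 in 1 fit over all 9 libraries and 195 with the replicate block, and DESeq2 called 3 of the member genes. Leaving out each library in turn gave, for HA coating against bare alloy, 598 to 4185 genes and 1 to 3 members, 3685 to 4211 genes and 6 to 6 members for TiB2 against bare alloy, and 49 to 1224 genes and 0 to 1 members for HA coating against TiB2. No cause of these shifts was tested.

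No value that changed sign was past the threshold in its own comparison. For HA coating against bare alloy these were CCN1 (0.12 without HA coating replicate 2), ACTA2 (0.018 without HA coating replicate 3, 0.0025 without bare alloy replicate 1), MYL9 (0.13 without bare alloy replicate 1), MRTFB (0.072 without HA coating replicate 3), and ANKRD1 (−0.25) and CNN1 (−0.44) against bare alloy replicate 1 alone. For TiB2 against bare alloy they were TAGLN (0.075 with limma on log2(FPKM + 0.1), 0.074 with the replicate block, 0.68 without bare alloy replicate 1) and SRF (−0.10 without TiB2 replicate 2, −0.059 without bare alloy replicate 2). For HA coating against TiB2 it was TPM1 (−0.11 without HA coating replicate 3). Over the fits that left out a library, the other end of the range was −0.30 for CCN1, −0.16 for ACTA2, −0.41 for MYL9 and −0.37 for MRTFB in HA coating against bare alloy, −0.55 for TAGLN and 0.10 for SRF in TiB2 against bare alloy, and 0.20 for TPM1 in HA coating against TiB2. On TiB2, CCN1 also lost its call with no filter, with DESeq2 size factors, in the 9-library fit and with the block, and AMOTL2 lost its call in the 9-library fit (adjusted p = 0.0697). Of the members and other genes named by the rule, 1 of 12 calls for HA coating against bare alloy (MYLK) and 14 of 26 for TiB2 against bare alloy held under every setting run, SMTN, VCL, LPP and TAGLN2 on TiB2 losing theirs in the 9-library fit (adjusted p = 0.135, 0.449, 0.517 and 0.495).

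The labels do not say whether replicate numbers pair the libraries. Deviations from the group means of same-numbered libraries correlated at −0.0672 to 0.0431. Such values show no shared shift, but cannot show whether the libraries were paired by culture or run. With the replicate block, HA coating against bare alloy had 1357 genes and 3 members past the threshold, TiB2 against bare alloy 3625 genes and 6 members, and HA coating against TiB2 0 members. ANKRD1 and CNN1 had 94 counts or fewer in every library, and their intervals were the widest of the 10 genes.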
